A study of Mus musculus with 30 samples.

Results

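The genes described here encode the glucose transporters, the glycolytic enzymes, the lactate transporters and the oxygen-sensing system, together with genes that are known to respond to low oxygen. They were chosen by name as a list of 37 mouse genes, out of 50686 genes counted in each library. RNA was sequenced from HPC7 and HPCLSK, mouse haematopoietic stem and progenitor cell lines, in 6 groups of 3 libraries. Cells of each line carried a retroviral vector that was empty (named for its dsRed marker), encoded STAT3, or encoded STAT3 Y640F. STAT3 is a transcription factor switched on by cytokine receptors, and the Y640F substitution, which lies in the SH2 domain, is known as an activating one. All groups grew in IMDM with 2% SCF and serum, and HPCLSK on plates coated with agarose. The labels give strain 129SV for HPC7 and C57BL/6N for HPCLSK, and the file headers show separate sequencing runs for the lines, so that line, strain, plate and run cannot be told apart. The series text calls the replicates technical, so p-values measure only the spread between these libraries, which may be technical. The oxygen level and the clonality of the transduced cells are not given in the sources used here.

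Glycolysis takes glucose in through transporters of the Slc2a family, traps and splits it in a chain of enzymes from hexokinase to pyruvate kinase, and yields pyruvate. Lactate dehydrogenase turns pyruvate into lactate, which leaves through monocarboxylate transporters, while pyruvate dehydrogenase kinases hold pyruvate back from the mitochondria. The hypoxia-inducible factors, of which Hif1a and Epas1 encode the alpha subunits, are known to raise many of these genes when oxygen is low, and the prolyl hydroxylases encoded by Egln1 and Egln3 mark the alpha subunits for destruction when oxygen is present. Blood stem cells are known for their reliance on glycolysis, and activated myeloid cells for a further increase of it. RNA levels alone, as measured here, do not give the flux through the pathway or the amount of HIF protein.

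Library totals ran from 9537258 to 38556669 counts, and the 37 genes held 0.692 to 1.17% of the counts. Of the 37 genes, 36 passed the filter on low counts in HPC7 and in the fit over all 18 libraries, and 34 passed it in HPCLSK. P4ha2, a subunit of collagen prolyl hydroxylase, had 1 count in 18 libraries and was tested nowhere. Eno2 and Epas1 were not tested in HPCLSK, where they had 1 to 4 and 0 to 12 counts per library. The other 34 genes had at least 10 counts in every HPCLSK library. In HPC7, Aldoc, Hk3 and Vegfa reached 10 counts in all 3 libraries only with empty vector, so they passed the filter through the group where they were high. Replicates differed more in some groups than in others: the chi-square per degree of freedom between libraries was 10.29 to 20.19 within HPC7 empty vector and 3.17 to 4.49 within the other HPC7 groups. HPCLSK Y640F replicate 1 stood apart from the other libraries of its group at 21.25 and 27.04, against 3.3 between those.

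The vectors were first checked on Stat3 itself. In HPC7, Stat3 stood at 227, 237 and 217 CPM (counts scaled to library size, by TMM within the line) with empty vector, at 1019, 1018 and 979 with STAT3, and at 706, 671 and 676 with Y640F. In HPCLSK, it stood at 359, 335 and 352 with empty vector, at 593, 549 and 632 with STAT3, and at 1840, 1877 and 1928 with Y640F. The groups did not overlap in either line. Stat3 RNA was thus higher with STAT3 in HPC7 and with Y640F in HPCLSK, so each comparison of the forms differs both in the residue and in Stat3 RNA. Reads from the vector and from the cells' own Stat3 gene were not told apart.

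With empty vector, the members with the highest level per kb of exon were Aldoa, Ldha, Tpi1 and Pkm in both lines, in different orders. Aldoa, the aldolase of most tissues, led in both and stood at 389 CPM per kb in HPC7 and at 250 in HPCLSK. Ldha, the lactate dehydrogenase subunit that favours lactate, stood at 329 and 215, Tpi1, triose phosphate isomerase, at 195 and 131, and Pkm, pyruvate kinase, at 162 and 228. Gapdh, usually among the most abundant RNAs of a cell, stood at only 7.72 CPM per kb in HPC7 and 4.38 in HPCLSK, and Pgk1 at 5.84 and 8.52. Both have many near-identical processed copies in the genome, and the counting command in the file headers has no option for reads with several positions, so the levels of Gapdh, Pgk1, Pgam1, Eno1, Aldoa and Ldha are uncertain where copies could take reads. Eno1b, a near-identical copy of Eno1, held 5.24 CPM in HPC7 with empty vector and 0.0688 in HPCLSK. Summed over the list, the level with empty vector was 7123 ± 250 CPM (SD, n = 3) in HPC7 and 7400 ± 478 (SD, n = 3) in HPCLSK, scaled over 18 libraries.

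The lines differed in which isozymes they used. With empty vector, 7 of 36 tested members were called higher in HPCLSK than in HPC7 and 5 lower, where a call is an adjusted p under 0.05 by edgeR's quasi-likelihood test with a change of at least 2-fold. Over all genes tested, 36.4% were called in this comparison (22.8% higher and 13.6% lower), so the share of members was close to the background. By the adjusted p alone, 18 members were higher and 15 lower, where 80.6% of all genes passed (41.6% higher and 39% lower). Hk3, a hexokinase of myeloid cells, had 12, 24 and 14 counts in HPC7 and 5064, 9238 and 5648 in HPCLSK, a log2 difference of 9.26 ± 0.22 (SE, n = 3 per group; adjusted p = 1.2e-17 by edgeR). Vegfa, the growth factor for blood vessels, was higher by 6.10 ± 0.16, Slc16a3, the lactate exporter MCT4, by 4.33 ± 0.30, and Aldoc, the brain-type aldolase, by 3.50 ± 0.25. Pfkfb4, Egln1 and Hk1 were higher by 1.33 ± 0.14, 1.29 ± 0.09 and 1.22 ± 0.05. Lower in HPCLSK were Eno2, the neuronal enolase (−3.71 ± 0.38), Slc2a3, the high-affinity glucose transporter GLUT3 (−3.41 ± 0.10), Epas1 (−2.65 ± 0.62), Ndrg1 (−2.02 ± 0.12) and Slc2a1, the transporter GLUT1 of most cells (−1.39 ± 0.14). Eno2 and Epas1 reached 10 counts in all 3 libraries of no HPCLSK group, so they passed the filter through HPC7 and could be called lower only. In HPCLSK with empty vector they had 4, 2 and 1 counts and 0, 1 and 5 counts, and the size of either difference is uncertain.

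As a share of its family per kb, Hk3 made up 0.233% of hexokinase RNA in HPC7 and 46.6% in HPCLSK with empty vector. All family shares given here depend on the exon length counted for each gene, such as 8532 bases for Hk1 and 3682 for Hk3. Without scaling by length, Hk1 stood at 735.8 CPM and Hk3 at 371.5 in HPCLSK with empty vector. Hk1 and Hk2 shared HPC7 nearly evenly, at 50.8 and 49.0%. Slc2a3 made up 39.7% of the pair Slc2a1 and Slc2a3 in HPC7 and 14.2% in HPCLSK. Markers of myeloid cells differed in the same comparison: the granulocyte list (12 genes) summed to 373 to 707 CPM in HPC7 and 8361 to 13040 in HPCLSK, and the list of monocyte and macrophage markers (10 genes) to 51.0 to 56.4 and 1098 to 1334. In bulk RNA, more cells of a type and more RNA per cell cannot be told apart, and the part of these cells in the Hk3 and Slc16a3 levels was not tested.

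**Figure D1:**
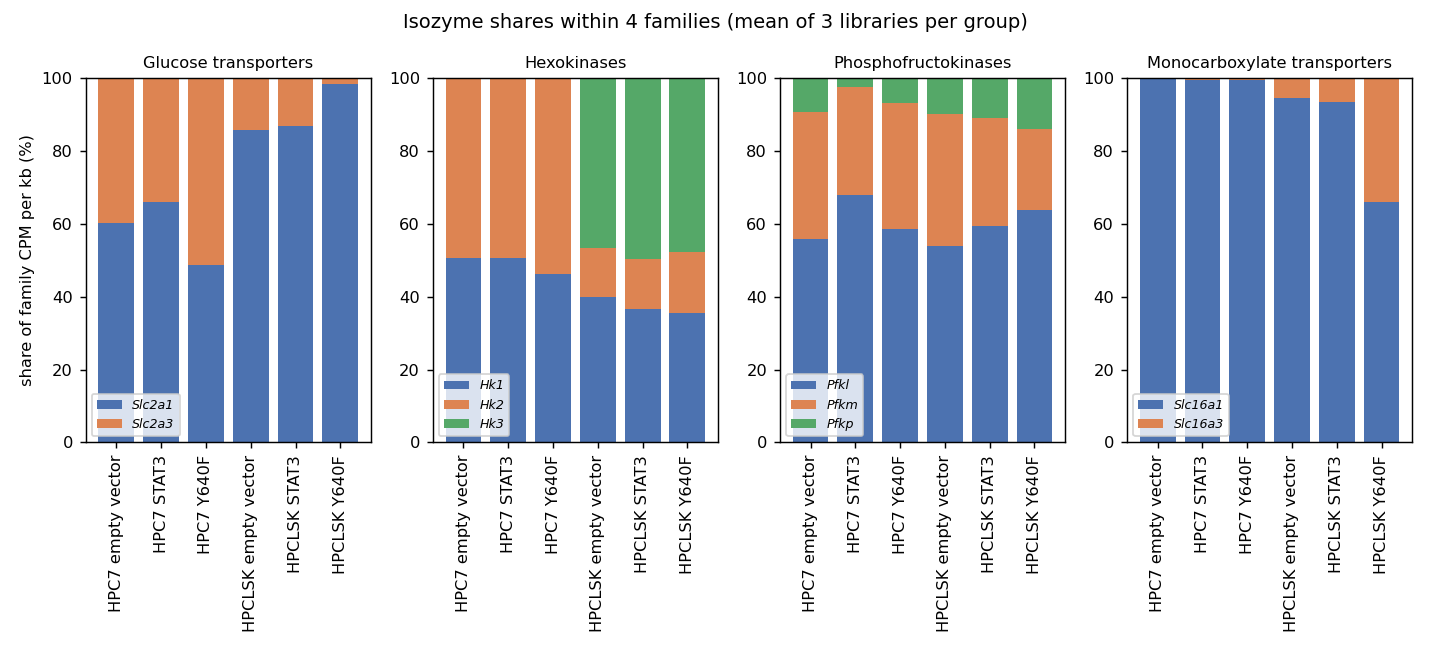
Share of each isozyme in the summed CPM per kb of its family (vertical axis, percent, mean of 3 libraries) in the 6 groups, for glucose transporters, hexokinases, phosphofructokinases and monocarboxylate transporters. Per kb, Hk3 held 46.6% of hexokinase RNA in HPCLSK with empty vector and 0.233% in HPC7. The share of Slc16a3 in HPCLSK was 5.36% with empty vector and 34.0% with Y640F. The shares depend on the exon length counted for each gene.

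With Y640F in HPCLSK, most tested members were higher than with empty vector by the adjusted p. Against empty vector, 8 of 34 tested members rose and 1 fell, and the median log2 fold change was 0.73 against −0.01 over all genes tested. Over all genes, 16.2% were called (9.62% higher and 6.57% lower), against 23.5% of members higher and 2.94% lower. By the adjusted p alone, 25 of 34 members were higher and 3 lower, or 73.5 and 8.82%, where 58.5% of all genes passed (30.6% higher and 28% lower). The called genes cover the entry of glucose, the middle and lower enzymes, the exit of lactate and the transcription factor Hif1a. The summed level of the list was 11560 ± 1068 CPM (SD, n = 3) with Y640F against 7400 ± 478 with empty vector.

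Slc16a3 (chr11:120948480-120960868, plus strand, GRCm38) had the largest rise. The 3 libraries with empty vector held 14.4, 16.4 and 15.3 CPM, those with STAT3 17.4, 18.1 and 13.3, and those with Y640F 264, 165 and 150. Every Y640F library was far above all others, and the rise over empty vector was 3.64 ± 0.21 on the log2 scale (adjusted p = 3.4e-07 by edgeR). Its share of monocarboxylate transporter RNA went from 5.36 to 34.0%, while Slc16a1, the transporter MCT1 that works in both directions, stood at 232, 224 and 223 CPM with empty vector and at 303, 310 and 302 with Y640F, a difference of 0.43 ± 0.04 that passed the adjusted p (1.5e-05) but not the 2-fold minimum. The 250 bases before a RefSeq start of Slc16a3 (chr11:120948817-120949066, plus strand, GRCm38.p6) are shown because this gene had the largest change. They lie inside the gene span given above, so this start is downstream of the first base of the span. Capitals mark ACGTG, the core of the element that HIF is known to bind, which occurs at 27 and 14 bases before that RefSeq start.
Slc16a3: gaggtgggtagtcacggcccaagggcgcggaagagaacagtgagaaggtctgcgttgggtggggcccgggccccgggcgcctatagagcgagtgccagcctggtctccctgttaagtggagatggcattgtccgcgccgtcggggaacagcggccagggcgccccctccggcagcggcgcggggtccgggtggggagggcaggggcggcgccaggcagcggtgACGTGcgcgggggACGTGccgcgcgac

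The glucose transporters went in opposite directions. Slc2a1 (chr4:119108711-119137983, plus strand) stood at 46.5, 51.6 and 50.7 CPM with empty vector, at 57.2, 60.9 and 49.0 with STAT3, and at 216, 147 and 124 with Y640F. It rose by 1.71 ± 0.17 with Y640F (adjusted p = 1.4e-05), and the lowest Y640F library was above the highest of the other groups. Slc2a3 (chr6:122727809-122801640, minus strand) stood at 20.1, 15.2 and 15.3 CPM with empty vector, at 17.6, 18.1 and 15.8 with STAT3, and at 2.93, 4.66 and 5.86 with Y640F. It was the single member that fell, by 1.88 ± 0.20 (adjusted p = 2.1e-05). The library highest for Slc2a1 was also the lowest for Slc2a3. Per kb, the share of Slc2a3 in the pair was 14.2% with empty vector and 1.47% with Y640F, and the sum of both was 16.7 ± 0.41 and 47.4 ± 13.6 CPM per kb (SD, n = 3). The sequence before the start of Slc2a1 (chr4:119108495-119108744, plus strand, RefSeq on GRCm38.p6) holds an ACGTG 36 bases before the start and, 61 bases before it, a CACGC, which is GCGTG on the other strand. Both are in capitals.
Slc2a1: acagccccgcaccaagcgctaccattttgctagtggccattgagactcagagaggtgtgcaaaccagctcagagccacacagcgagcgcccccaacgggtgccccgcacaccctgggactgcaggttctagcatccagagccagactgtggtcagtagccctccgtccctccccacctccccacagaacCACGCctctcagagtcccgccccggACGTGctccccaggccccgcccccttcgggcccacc

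**Figure D2:**
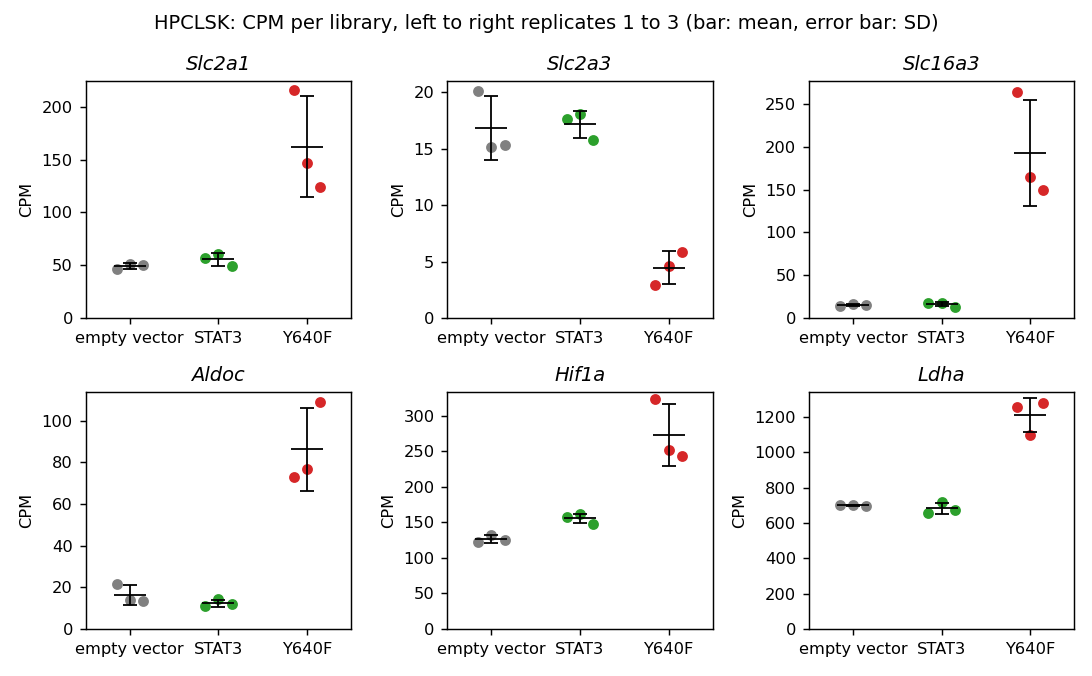
CPM of 6 members in the 9 HPCLSK libraries (vertical axes, linear and from 0), with points for replicates 1 to 3 from left to right, a bar for the mean and error bars for the SD. With Y640F, Slc2a1, Slc16a3, Aldoc, Hif1a and Ldha lay above all libraries with empty vector and STAT3, and Slc2a3, at 2.93 to 5.86 CPM, lay below all of them.

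Of the 16 glycolytic enzymes, 15 were tested, 3 rose and none fell. Aldoc (chr11:78322968-78327781, plus strand) stood at 21.6, 13.9 and 13.4 CPM with empty vector and at 73.1, 76.8 and 109 with Y640F, a rise of 2.43 ± 0.20. Aldoa stood at 738, 1029 and 1007 CPM and at 2512, 1920 and 1927, a rise of 1.20 ± 0.14. Eno1, the enolase of most tissues, stood at 130, 177 and 158 CPM and at 348, 287 and 314, a rise of 1.03 ± 0.10. The groups did not overlap for any of the 3. Aldoc remained a small part of aldolase RNA, at 2.10% of the pair per kb with empty vector and 4.59% with Y640F. By the adjusted p alone, 12 of the 15 enzymes were higher and 2 lower, with a median log2 fold change of 0.81 over the 15.

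Most of the other enzymes passed the adjusted p under the 2-fold minimum. In the upper part of the pathway, Gpi1, Pfkl and Pfkp, an isomerase and the liver and platelet forms of phosphofructokinase, were higher by 0.50 ± 0.08, 0.53 ± 0.09 and 0.81 ± 0.13. In the lower part, Tpi1, Gapdh, Pgk1 and Pkm were higher by 0.86 ± 0.09, 0.82 ± 0.10, 0.87 ± 0.12 and 0.93 ± 0.11, and Pgam1 by 0.48 ± 0.07. Pkm stood at 939, 1213 and 1215 CPM with empty vector and at 2406, 1953 and 2039 with Y640F, without overlap (adjusted p = 3.2e-05). The hexokinases had smaller differences. Hk2, the inducible form, stood at 188, 166 and 161 CPM and at 187, 201 and 187, a difference of 0.16 ± 0.06 whose groups overlapped (adjusted p = 0.049). Hk1 was lower by 0.33 ± 0.06 (adjusted p = 0.0005) and Hk3 differed by −0.13 ± 0.12 (adjusted p = 0.4). Pfkm, the muscle form of phosphofructokinase, was lower by 0.43 ± 0.08. Of the bifunctional enzymes that set the level of the activator fructose 2,6-bisphosphate, Pfkfb4 was higher by 0.83 ± 0.13 and Pfkfb3 by 0.17 ± 0.07.

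At the pyruvate branch, Ldha stood at 702, 703 and 695 CPM with empty vector and at 1260, 1101 and 1279 with Y640F, a difference of 0.79 ± 0.06 (adjusted p = 3e-06) without overlap. Pdk1, the kinase that shuts pyruvate dehydrogenase, stood at 157, 175 and 179 CPM and at 178, 147 and 136, a difference of −0.15 ± 0.09 (adjusted p = 0.19). Pdk1 is also a known HIF target, and its groups overlapped. The 250 bases before the upstream start of Ldha (chr7:46845554-46845803, plus strand, RefSeq on GRCm38.p6) are shown because they hold the most ACGTG matches of any member. Capitals mark ACGTG on either strand, and 2 of the sites are the palindrome CACGTG, which matches on both strands and is also the E-box bound by MYC-type factors.
Ldha: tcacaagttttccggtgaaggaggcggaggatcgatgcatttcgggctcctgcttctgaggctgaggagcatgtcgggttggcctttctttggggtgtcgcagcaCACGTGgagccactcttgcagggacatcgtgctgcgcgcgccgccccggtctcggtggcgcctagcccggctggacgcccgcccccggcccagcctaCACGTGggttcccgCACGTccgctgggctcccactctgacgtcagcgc

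Hif1a was the only one of the 3 tested genes of the oxygen-sensing system that was called. Hif1a (chr12:73901375-73947530, plus strand) stood at 122, 132 and 125 CPM with empty vector, at 157, 161 and 148 with STAT3, and at 323, 252 and 243 with Y640F. Its 3 groups did not overlap, and the rise with Y640F was 1.11 ± 0.10 (adjusted p = 4.7e-06). Egln1, which encodes the main oxygen sensor PHD2, stood at 55.8, 58.2 and 60.5 CPM and at 80.8, 69.8 and 62.0, a difference of 0.28 ± 0.10 (adjusted p = 0.029). Egln3 differed by −0.35 ± 0.14 (adjusted p = 0.051), and its groups overlapped.

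Among the 8 tested hypoxia targets, 2 rose, none fell, and 5 were higher by the adjusted p alone. Ankrd37, an ankyrin-repeat protein, stood at 1.98, 3.42 and 3.30 CPM with empty vector and at 9.001, 6.28 and 5.57 with Y640F, a rise of 1.22 ± 0.24. Ndrg1, a stress-response gene, stood at 46.2, 41.0 and 37.7 CPM and at 102, 82.0 and 78.7, a rise of 1.08 ± 0.12. Bnip3, which promotes mitophagy, was higher by 0.92 ± 0.25, Vegfa by 0.87 ± 0.08 and Mxi1, a MYC antagonist, by 0.66 ± 0.06. P4ha1, Bnip3l and Kdm3a differed by 0.25 ± 0.18, 0.01 ± 0.08 and −0.22 ± 0.11, and none of these passed the test.

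HPCLSK Y640F replicate 1 weighed on these values. It was the highest library of its group for 22 of 34 members, among them Slc16a3, Slc2a1, Hif1a, Ankrd37 and Bnip3. Without it, 4 of 34 members were called higher: Eno1 (0.93), Hif1a (0.95), Ankrd37 (0.97) and Ndrg1 (0.93) dropped under the 2-fold minimum and kept adjusted p-values of at most 0.003 by edgeR. Without this library and HPCLSK empty vector replicate 1, which stood apart from the other empty vector libraries at 8.06 and 10.62 chi-square per degree of freedom, 4 members were called higher, and Aldoa (0.89), Eno1 (0.82), Hif1a (0.92) and Ankrd37 (0.79) were under the minimum. Without empty vector replicate 1 alone, Eno1 was at 0.89. Markers of other cell types moved in the same comparison. Of 10 monocyte and macrophage markers, 7 rose with Y640F, and the list summed to 1098 to 1334 CPM with empty vector, 1287 to 2318 with STAT3 and 6666 to 9814 with Y640F. Of 5 tested markers of mast cells and basophils, 3 fell, and their list of 9 summed to 4626 to 6353, 3501 to 3575 and 1135 to 1653. The stem and progenitor list (11 genes) summed to 5446 to 5874 CPM with empty vector and to 3460 to 3839 with Y640F, with Kit at 743 and 259 and Cd34 at 2343 and 982. Not all of this list fell: Spi1 stood at 171 and 426 CPM, Ptprc at 343 and 569 and Runx1 at 179 and 186. The megakaryocyte list (8 genes) summed to 1196 to 1704 and to 497 to 734. Of 12 granulocyte markers, 4 rose and 3 fell. S100a8 stood at 203 CPM with empty vector and at 4630 with Y640F. Mpo, in contrast, stood at 7919 and 4675 CPM and Ltf at 21.8 and 5.29. In the lymphoid list (10 genes), Nkg7 held nearly all of the level, at 247 CPM for empty vector, 276 for STAT3 and 25.0 for the Y640F libraries, while Cd3e, Cd3g, Cd8a, Ebf1, Ncr1 and Pax5 were at 0 in all 3 HPCLSK groups. The part of these cells in the response of the glycolytic genes was not tested.

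**Figure D3:**
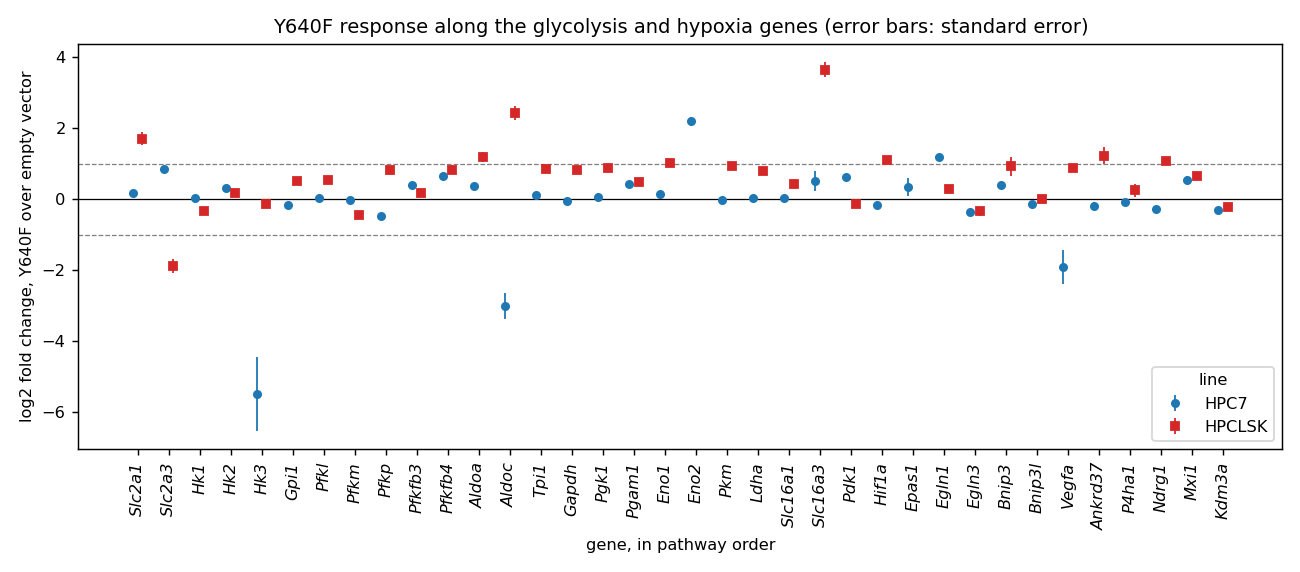
Log2 fold change of Y640F over empty vector (vertical axis, with standard errors) for the tested genes in pathway order, in HPC7 (circles, 36 genes) and HPCLSK (squares, 34 genes), with dashed lines at the 2-fold minimum. The HPCLSK values lie above 0 for most enzymes from Aldoa to Ldha, with Slc16a3 the highest at 3.64, while most HPC7 values lie near 0.

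Against STAT3, Y640F in HPCLSK was again led by Slc16a3, Aldoc and Slc2a1. Of 34 members, 3 rose and 1 fell, and the median log2 fold change was 0.50. Over all genes tested, 14.2% were called (8.11% higher and 6.09% lower), so the share of members called, 8.82% higher and 2.94% lower, was near the background. By the adjusted p alone, 22 members were higher and 4 lower, or 64.7 and 11.8%, against 53.8% of all genes (28.6% higher and 25.2% lower). Slc16a3 rose by 3.54 ± 0.21, Aldoc by 2.79 ± 0.21 and Slc2a1 by 1.53 ± 0.17, and Slc2a3 fell by 1.92 ± 0.20. Hif1a, Ldha and Pkm were higher by 0.81 ± 0.10, 0.83 ± 0.06 and 0.76 ± 0.11 without reaching the minimum. Hk2 and Pdk1 differed by 0.14 ± 0.06 (adjusted p = 0.095) and 0.00 ± 0.09 (adjusted p = 0.99). The number of rising members was 5 without STAT3 replicate 2 or Y640F replicate 2, and 6 without Y640F replicate 3. This comparison and the one with empty vector share the Y640F libraries.

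STAT3 in HPCLSK called no member against empty vector. Stat3 RNA rose by 0.76 on the log2 scale in this comparison, and by 2.15 with STAT3 in HPC7. By edgeR and by DESeq2, 0 of 34 rose and 0 fell, where 4.6% of all genes were called (2.8% higher and 1.79% lower). At an unadjusted p under 0.05, 8 members were higher and 3 lower, and at an adjusted p under 0.05, 4 were higher and 2 lower, or 11.8 and 5.88%, against 14.1% of all genes (7.7% higher and 6.37% lower). Pfkfb4 stood at 14.6, 12.9 and 15.9 CPM with empty vector and at 27.2, 22.8 and 18.2 with STAT3, a difference of 0.67 ± 0.13 (adjusted p = 0.0073) without overlap. Vegfa, Pfkfb3 and Mxi1 were higher by 0.58 ± 0.08, 0.34 ± 0.07 and 0.29 ± 0.07, and Pfkm and Slc16a1 lower by 0.32 ± 0.08 and 0.23 ± 0.05. Slc2a1, Hk2, Ldha, Pkm and Pdk1 differed by 0.17 ± 0.18, 0.03 ± 0.06, −0.03 ± 0.06, 0.17 ± 0.11 and −0.15 ± 0.09, with adjusted p-values of 0.33 to 0.85. Hif1a was 0.30 ± 0.10 higher with separate groups, and its adjusted p was 0.065. Granulocyte markers moved here: 8 of 12 rose, and the list summed to 15050 to 22710 CPM with STAT3. The part of such cells in the values above was not tested.

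**Figure D4:**
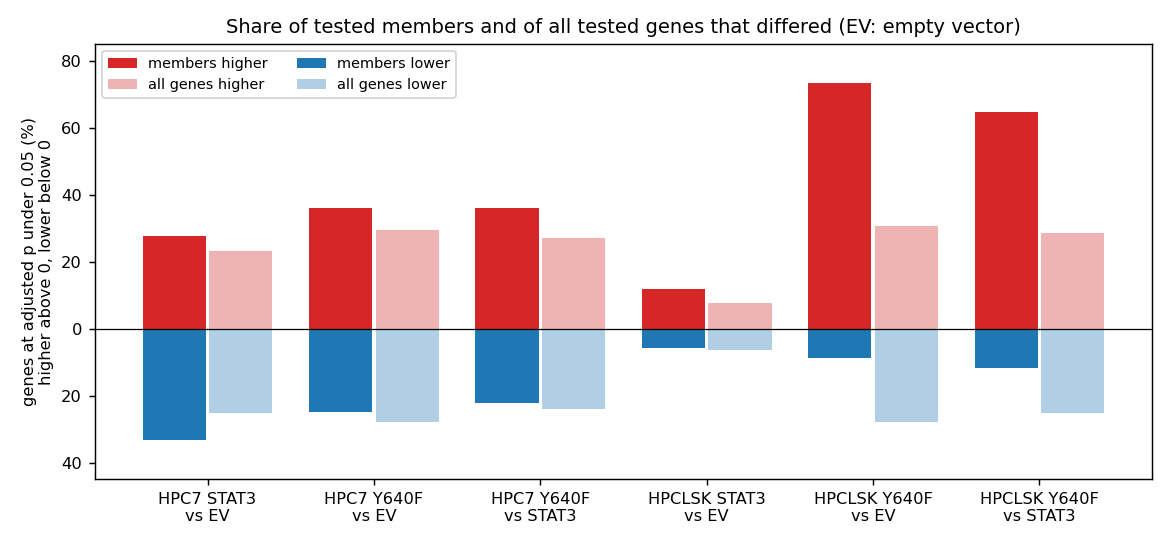
Share of tested members (solid) and of all tested genes (pale) at an adjusted p under 0.05, higher above 0 and lower below 0 (vertical axis, percent), in the 6 comparisons within a line. With Y640F against empty vector in HPCLSK, 73.5% of members were higher against 30.6% of all genes, while in HPC7 the shares of members and of all genes lay closer together.

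In HPC7, STAT3 moved single members in both directions. Against empty vector, 3 of 36 tested members rose and 5 fell, or 8.33 and 13.9%, where 7.22% of all genes were called (1.81% higher and 5.41% lower). The median log2 fold change of the members was 0.07, and by the adjusted p alone 10 were higher and 12 lower, or 27.8 and 33.3%, against 48.6% of all genes (23.3% higher and 25.3% lower). Of the 5 that fell, Hk3, Vegfa and Aldoc are the genes that passed the filter only through the empty vector libraries, so these could be called lower only.

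Ndrg1 had the largest rise, from 138, 185 and 193 CPM with empty vector to 399, 399 and 409 with STAT3, by 1.23 ± 0.09 (adjusted p = 1.3e-07 by edgeR). Y640F gave 136, 149 and 141 CPM, so that only the STAT3 libraries stood apart. Mxi1 rose from 56.5, 41.3 and 39.8 CPM to 94.5, 92.4 and 92.8, by 1.03 ± 0.10. Without empty vector replicate 2 or replicate 3 it was at 0.97 and 0.93, under the minimum. Slc16a3 rose from 0.707, 0.774 and 0.849 CPM to 1.95, 1.52 and 1.79, by 1.15 ± 0.27, at a level far under that of HPCLSK. Pfkp, the platelet form of phosphofructokinase, fell from 53.8, 50.7 and 50.6 CPM to 11.1, 10.4 and 13.02, by 2.17 ± 0.09 (adjusted p = 5.9e-10). Its share of phosphofructokinase RNA per kb was 9.14% with empty vector and 2.26% with STAT3. Egln1 (chr8:124908587-124949324, minus strand) fell from 27.4, 22.4 and 23.5 CPM to 10.8, 10.95 and 10.6, by 1.18 ± 0.08.

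Markers of cell types moved with STAT3 in HPC7 too. Of the tested markers, 5 of 6 for granulocytes and 4 of 8 for monocytes and macrophages fell, and 2 of 7 for megakaryocytes rose, with all 7 higher by the adjusted p alone. The megakaryocyte list summed to 577 to 702 CPM with empty vector and to 961 to 981 with STAT3, and the monocyte and macrophage list to 51.0 to 56.4 and to 29.7 to 32.2. Cd34, a surface marker of progenitors, stood at 609 ± 49.2 CPM (SD, n = 3) and at 41.2 ± 0.87. Other stem and progenitor markers did not follow it: Kit stood at 1281 and 1494 CPM and Myb at 334 and 409, while Ptprc stood at 469 and 308. The list of 11 summed to 3427 to 3668 CPM with empty vector and to 3330 to 3368 with STAT3. Their part in the values of the members was not tested.

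The genes near the filter had few counts. Hk3 had 12, 24 and 14 counts with empty vector and 0, 5 and 0 with STAT3, Vegfa 12, 14 and 15 against 2, 2 and 4, and Aldoc 36, 48 and 35 against 8, 18 and 11. Their log2 fold changes were −3.50 ± 0.75, −2.56 ± 0.53 and −1.96 ± 0.32, and none of the 3 is tested when at least 5 CPM in 3 libraries is asked. Under the 2-fold minimum, Slc2a1 was higher by 0.43 ± 0.06 and Pdk1 by 0.12 ± 0.04, and Hk2 was lower by 0.21 ± 0.05. Hif1a, Ldha and Pkm differed by 0.06 ± 0.04, 0.08 ± 0.04 and 0.09 ± 0.05, and none passed the adjusted p. Egln3 was lower by 0.68 ± 0.06, Eno2 by 0.84 ± 0.17 and Pfkm by 0.39 ± 0.06.

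Y640F in HPC7 raised 2 of 36 tested members and lowered 3, or 5.56 and 8.33%, where 8.18% of all genes were called (4.54% higher and 3.64% lower). All 3 that fell are the genes that passed the filter only with empty vector. The median log2 fold change was 0.04, and by the adjusted p alone 13 were higher and 9 lower, or 36.1 and 25.0%, against 57.3% of all genes (29.5% higher and 27.8% lower). Eno2 rose from 2.04, 1.72 and 1.70 CPM to 8.44, 8.74 and 7.84, by 2.20 ± 0.13 (adjusted p = 1.2e-08), and its share of enolase RNA per kb was 2.27% with empty vector and 8.75% with Y640F. Egln1 rose from 27.4, 22.4 and 23.5 CPM to 54.1, 57.3 and 56.8, by 1.20 ± 0.07 (adjusted p = 6.9e-09). Hk3 had 1 count over the 3 Y640F libraries and 50 over those with empty vector, which were higher by a ratio of 62.2 (95% exact interval 10.7 to 2505, counting error only). Aldoc fell by 3.02 ± 0.37 and Vegfa by 1.92 ± 0.48.

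Of the genes that led in HPCLSK, the glucose transporters differed in HPC7 as follows. Slc2a3 stood at 181, 187 and 177 CPM with empty vector, at 190, 191 and 192 with STAT3, and at 334, 324 and 326 with Y640F. The difference of 0.86 ± 0.04 with Y640F was under the minimum (adjusted p = 4.7e-10) and its direction was the opposite of that in HPCLSK. Slc2a1 was higher by 0.17 ± 0.06, Hk2 by 0.30 ± 0.05, Pdk1 by 0.62 ± 0.04 and Pfkfb4 by 0.65 ± 0.12, and Hif1a was lower by 0.17 ± 0.04. Ldha and Pkm differed by 0.04 ± 0.04 (adjusted p = 0.44) and −0.02 ± 0.05 (adjusted p = 0.7). Pdk1 and Pfkfb3 (0.41 ± 0.04) lie on chromosome 2. In this comparison the median over the 1008 genes tested there was 0.47, with 89.1% of them higher, so both values stood near that median. Mxi1 (0.55 ± 0.10) and Pgam1 (0.42 ± 0.10) lie on chromosome 19, where the median was 0.24. The part of such chromosome-wide shifts in these values was not tested. Erythroid markers moved too, with 7 of 10 tested genes higher with Y640F, and 5 of 6 tested granulocyte markers fell with both forms; their part was not tested.

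**Figure D5:**
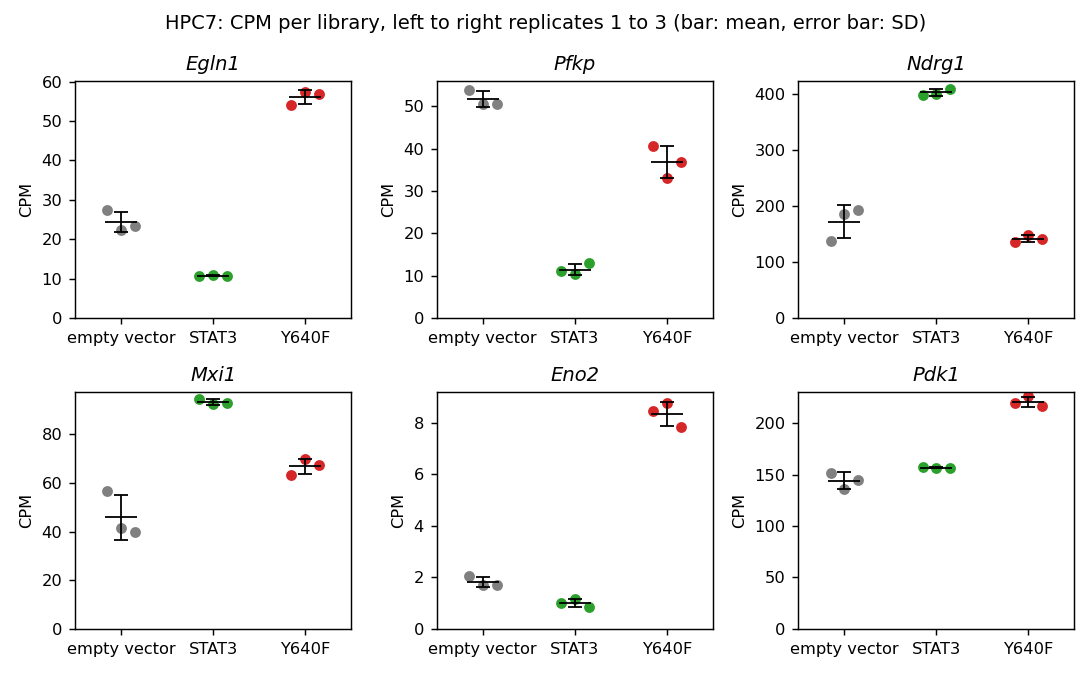
CPM of 6 members in the 9 HPC7 libraries (vertical axes, linear and from 0), with points for replicates 1 to 3 from left to right, a bar for the mean and error bars for the SD. Egln1 lay at 10.6 to 10.95 CPM with STAT3 and at 54.1 to 57.3 with Y640F, on either side of empty vector, and Ndrg1 was high only with STAT3.

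Between the forms in HPC7, Eno2 and Egln1 differed most. Y640F against STAT3 raised 3 of 36 members and lowered 1, or 8.33 and 2.78%, where 7.89% of all genes were called (6.17% higher and 1.73% lower), and the median was 0.00. By the adjusted p alone, 13 were higher and 8 lower, where 51.2% of all genes passed (27.1% higher and 24.1% lower). Eno2 was 3.04 ± 0.14 higher, Egln1 2.38 ± 0.07 and Pfkp 1.69 ± 0.09, and Ndrg1 fell by 1.502 ± 0.090. Of these, Egln1 changed in opposite directions with STAT3 and with Y640F, both against the same empty vector libraries. Hk2, Pdk1 and Slc2a3 were higher by 0.51 ± 0.05, 0.49 ± 0.04 and 0.78 ± 0.04, and Slc2a1 and Hif1a lower by 0.25 ± 0.06 and 0.24 ± 0.04. On chromosome 2, which holds Pdk1, the median in this comparison was 0.44 with 86.2% of 1008 genes higher, and its part in the Pdk1 value was not tested. Ldha and Pkm differed by −0.04 ± 0.04 (adjusted p = 0.46) and −0.11 ± 0.05 (adjusted p = 0.071). Without STAT3 replicate 1, 2 members were called lower. The promoter of Egln1 (chr8:124949255-124949504, minus strand, RefSeq on GRCm38.p6) is shown because this gene changed in opposite directions. It holds an ACGTG 68 bases and a GCGTG 126 bases before the start, both in capitals, and no TTCNNNGAA, the form that STAT dimers are known to bind.
Egln1: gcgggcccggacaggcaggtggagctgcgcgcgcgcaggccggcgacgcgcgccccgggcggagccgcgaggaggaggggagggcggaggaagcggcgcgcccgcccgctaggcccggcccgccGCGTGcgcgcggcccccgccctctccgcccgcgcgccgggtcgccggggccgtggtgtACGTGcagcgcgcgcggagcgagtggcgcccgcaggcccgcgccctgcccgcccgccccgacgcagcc

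The difference between the lines was tested as an interaction over all 18 libraries, as the log2 fold change in HPCLSK minus that in HPC7. Stat3 RNA itself rose with STAT3 by 0.76 in HPCLSK and by 2.15 in HPC7, and with Y640F by 2.43 and 1.59. A line difference thus also compares unlike rises of Stat3 RNA, whose part was not tested. For Y640F over empty vector, 9 of 36 members were higher in this difference and 1 lower, or 25.0 and 2.78%, where 15% of all genes were called (7.74% higher and 7.25% lower). Without the fold minimum, 19 were higher and 6 lower, where 48.6% of all genes passed (25.8% higher and 22.9% lower). The members with at least 10 counts in every library that were called were Slc16a3 (3.15 ± 0.52), Slc2a1 (1.54 ± 0.19), Ankrd37 (1.42 ± 0.26), Ndrg1 (1.36 ± 0.17), Pfkp (1.30 ± 0.17) and Hif1a (1.29 ± 0.11) on the higher side and Slc2a3 (−2.70 ± 0.17) on the lower. Aldoc, Hk3 and Vegfa, at 5.44 ± 0.51, 5.22 ± 1.27 and 2.78 ± 0.43, rest on few counts in HPC7. Ldha (0.77 ± 0.08), Pkm (0.96 ± 0.12), Tpi1 (0.75 ± 0.10) and Gapdh (0.88 ± 0.11) passed the adjusted p under the minimum. Hk2 gave −0.13 ± 0.09 (adjusted p = 0.24). The number of lower members was 3 without HPC7 empty vector replicate 1, and 2 without HPCLSK empty vector replicate 2, empty vector replicate 3 or Y640F replicate 1. For STAT3 over empty vector, 6 of 36 were higher and 0 lower by edgeR (6 lower at an unadjusted p under 0.05), with 1 lower by DESeq2, where 8.25% of all genes were called (6.16% higher and 2.09% lower). Without the fold minimum, 8 were higher and 4 lower, where 30.4% of all genes passed (16.5% higher and 13.9% lower). Pfkp (2.29 ± 0.18), Egln1 (1.15 ± 0.13) and Egln3 (1.02 ± 0.16) had at least 10 counts in every library, and Hk3, Vegfa and Aldoc (3.54 ± 0.89, 3.11 ± 0.48 and 1.58 ± 0.48) did not. Egln3 was under the 2-fold minimum in 6 of 18 alternative settings, at 0.89 at the lowest. Without HPC7 empty vector replicate 3 or HPCLSK STAT3 replicate 2, 1 member was lower.

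Promoter windows from 250 bases before to 50 after the start were found in the RefSeq table (GRCm38.p6) for 33 of the 37 genes, all but Slc2a3, Ndrg1, Epas1 and Bnip3l. Both strands were searched, and overlapping matches were counted. ACGTG was present for 24 of 33 members (72.7%) and for 21.8% of all 27025 genes with a window. GCGTG was present for 63.6% of members and 35.2% of all genes, and the palindrome CACGTG, which contains ACGTG, for 18.2 and 8.09%. TTCNNNGAA was present for 3 of 33 members (9.09%) and 9.55% of all genes. The list was drawn up partly from genes known as HIF targets, so these shares describe the list. Of the 8 members that rose with Y640F in HPCLSK, Slc16a3, Aldoc, Slc2a1, Ankrd37, Aldoa and Hif1a hold ACGTG and Eno1 holds only GCGTG, while Ndrg1 has no window. Windows were placed at RefSeq starts, and some, such as those of Slc16a3 and Hif1a, lie wholly inside the gene span given above. The window of a downstream start of Aldoc (chr11:78323948-78324197 for its first 250 bases, plus strand) is shown because it holds 2 TTCNNNGAA matches, 124 and 83 bases before that start. They are in capitals, as is a CACGC.
Aldoc: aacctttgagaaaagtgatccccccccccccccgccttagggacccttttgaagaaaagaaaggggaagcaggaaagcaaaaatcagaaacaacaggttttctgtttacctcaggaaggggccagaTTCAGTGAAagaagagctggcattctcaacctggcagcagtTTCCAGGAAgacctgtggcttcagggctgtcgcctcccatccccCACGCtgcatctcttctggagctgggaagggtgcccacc

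Genes around the list were taken from wider lists of pathway genes. In the pentose phosphate pathway, which branches from glycolysis to make NADPH and ribose, 2 of 8 tested genes rose with Y640F in HPCLSK and none fell, and 6 were higher by the adjusted p alone. Over all genes, 9.62% rose and 6.57% fell in this comparison, and 30.6% were higher by the adjusted p alone. G6pdx, its first enzyme, stood at 205 ± 27.9 CPM (SD, n = 3) with empty vector and at 714 ± 139 with Y640F, a rise of 1.80 ± 0.13 (adjusted p = 1.5e-06 by edgeR). Pgd, which also makes NADPH, rose from 264 ± 25.6 to 708 ± 141 CPM, by 1.43 ± 0.13. In HPC7, 0 of the 8 were called with either form by edgeR, where 7.22% of all genes were called with STAT3 and 8.18% with Y640F. At an unadjusted p under 0.05, 2 were higher and 6 lower with STAT3 and 1 higher and 6 lower with Y640F. Of all genes tested in HPC7, 48.6% passed even the adjusted p with STAT3 and 57.3% with Y640F. At least these shares of all genes thus reached the unadjusted p. Among genes of pyruvate entry into mitochondria, 0 of 11 tested were called with either form in either line by edgeR. In HPCLSK, 4.6% of all genes were called with STAT3 and 16.2% with Y640F. At an unadjusted p under 0.05, 5 were higher and 3 lower with Y640F in HPCLSK and 3 and 1 with STAT3, against 2 and 4 in HPC7 with Y640F and 2 and 5 with STAT3. In HPCLSK, 58.5% of all genes passed the adjusted p with Y640F and 14.1% with STAT3.

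Among other isozymes and transporters, Slc2a6, a lysosomal hexose transporter, rose with Y640F in both lines, by 1.79 ± 0.20 in HPCLSK (21.9 to 76.1 CPM) and by 2.36 ± 0.17 in HPC7 (1.36 to 7.13 CPM). In HPCLSK, 1 of 10 tested genes of this list rose and 1 fell, near the 9.62 and 6.57% of all genes. The gene that fell was Slc16a7, the transporter MCT2, by 1.70 ± 0.13. In HPC7 with Y640F, 3 of 11 rose and 1 fell, where 4.54% of all genes rose and 3.64% fell, with Slc2a8 up by 1.10 ± 0.09 and Bpgm, the red cell enzyme that makes 2,3-bisphosphoglycerate, down by 1.25 ± 0.07. Genes of this list were not set beside the median of their chromosome. That median reached 0.47 on chromosome 2 in this comparison, and the part of such shifts was not tested. With STAT3 in HPC7, Bpgm fell by 1.06 ± 0.07, and Tigar, a brake on glycolysis, rose by 1.06 ± 0.05.

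The list of other hypoxia targets had 39 genes. With Y640F in HPCLSK, 5 of 33 tested rose and 2 fell, where 9.62% of all genes rose and 6.57% fell. The median of the list was 0.28 against −0.01 over all genes. Hmox1, haem oxygenase, rose by 3.07 ± 0.51 from 36.0 ± 16.2 to 309 ± 226 CPM (SD, n = 3), so the Y640F libraries spread widely. Bhlhe40, a transcriptional repressor, rose by 2.36 ± 0.13, from 18.9 ± 0.29 to 96.7 ± 18.8 CPM. Nos2, the inducible nitric oxide synthase of macrophages, had 1 count with empty vector and 319 with Y640F, a ratio of 335 (95% exact interval 59.8 to 13290, counting error only). The STAT3 group also held just 1 count of Nos2. This gene thus passed the filter through the Y640F libraries alone and could be called higher only. For Bhlhe41 (150 counts for Y640F, 21 for STAT3, 3 for empty vector), any call against empty vector would be limited in the same way. With STAT3 in HPCLSK, Selenbp1 fell by 1.83 ± 0.12 from 50.4 to 14.3 CPM. In HPC7, 0 of 30 tested genes rose and 6 fell with STAT3 by edgeR (8 higher and 10 lower at an unadjusted p under 0.05), with Hmox1 down by 1.16 ± 0.12, where 1.81% of all genes rose and 5.41% fell. With Y640F, 3 rose and 4 fell, where 4.54% of all genes rose and 3.64% fell. Plod2, a collagen lysyl hydroxylase, fell by 3.93 ± 0.20 with STAT3 and fell by 3.37 ± 0.18 with Y640F, from 21.2 to 1.40 and 2.08 CPM. Bhlhe40 rose by 2.11 ± 0.09 and Ddit4, an inhibitor of mTORC1, by 1.70 ± 0.10 with Y640F. Hif3a, a further alpha subunit, had the largest difference among regulators of HIF with empty vector, at 78.0 ± 2.19 CPM in HPC7 and 1.75 ± 0.70 in HPCLSK.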

How the data were processed

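mRNA was sequenced single-end at 50 bp in 18 of the 30 samples, and the 12 chromatin samples were not used here. Each deposited file holds raw counts. Per the file headers, the authors made them with featureCounts 1.5.1 (exons summed by gene, strand option 2, GENCODE M13). STAR and Trimmomatic are named in the submitters' processing notes. The series text names the Lexogen SENSE kit, while the labels' protocols name TruSeq Stranded mRNA LT.

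Counts were scaled by TMM and tested with edgeR 4.0.16 (quasi-likelihood, filterByExpr, R 4.3.3), with 1 fit per line (9 libraries, 6 residual degrees of freedom) and 1 fit of all 18 for comparisons across lines. P-values were adjusted by Benjamini-Hochberg over all genes tested. A call needed an adjusted p under 0.05 and a 2-fold change. The scripts were tested on simulated data. Slc2a1, Hk2, Ldha, Pkm, Pdk1 and Hif1a are named in every comparison within a line, as are called members, and up to 3 called genes per wider list with at least 5 CPM. Members, gene lists and tests were chosen with earlier results of these data known. Replicate numbers did not pair libraries across groups. Alternatives were DESeq2 1.42.0, other filters, fold minimums and scalings, a replicate block and leaving out libraries. Promoter sequences are from RefSeq on GRCm38.p6. Of the wider lists, 1 result is not reported here.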

Additional observations from a re-analysis of the deposited data

Results flagged for a closer look

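The values below are differences between the lines in the log2 fold change over empty vector, HPCLSK minus HPC7, tested as an interaction by edgeR over 18 libraries. For Y640F, the difference was higher for Aldoc (5.44, adjusted p = 6.4e-08), Hk3 (5.22, adjusted p = 0.00083), Slc16a3 (3.15, adjusted p = 6e-05), Vegfa (2.78, adjusted p = 2.1e-05), Slc2a1 (1.54, adjusted p = 2.2e-06), Ankrd37 (1.42, adjusted p = 0.00018), Ndrg1 (1.36, adjusted p = 2.1e-06), Pfkp (1.30, adjusted p = 2.8e-06) and Hif1a (1.29, adjusted p = 1.6e-08). It was lower for Slc2a3 (−2.70, adjusted p = 4e-10). For STAT3, it was higher for Hk3 (3.54, adjusted p = 0.0038), Vegfa (3.11, adjusted p = 4.1e-05), Pfkp (2.29, adjusted p = 1.4e-08), Aldoc (1.58, adjusted p = 0.016), Egln1 (1.15, adjusted p = 1.8e-06) and Egln3 (1.02, adjusted p = 7.8e-05). Hk3, Aldoc and Vegfa had few counts in HPC7. Line, strain, plate, sequencing run and the size of the rise in Stat3 RNA cannot be told apart in these differences. With STAT3, Stat3 RNA rose over empty vector by 2.15 on the log2 scale in HPC7 and by 0.76 in HPCLSK. With Y640F it rose by 1.59 in HPC7 and by 2.43 in HPCLSK.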

How the results depend on the processing

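No gene called in the main run or under an alternative changed direction under the 11 to 18 alternatives run for it. Differences near 0 that were not called could change sign. Hk2 with STAT3 in HPCLSK was at 0.025 in the main run and at −0.02 at the lowest. Of the values under alternatives, 1431 kept their call or lack of a call, while 20 lost a call and 26 gained one. All 26 gains came from lowering or dropping the fold minimum, settings that are not among the 11 to 18 alternatives. Counts of called members are given as higher and lower. With the adjusted p alone they were 10 and 12 for STAT3 in HPC7, 13 and 9 for Y640F in HPC7, 13 and 8 for Y640F against STAT3 in HPC7, 4 and 2 for STAT3 in HPCLSK, 25 and 3 for Y640F in HPCLSK, 22 and 4 for Y640F against STAT3 in HPCLSK, and 18 and 15 between the lines with empty vector. For the line differences, 4 were then lower with STAT3, and 19 higher and 6 lower with Y640F. With a fold minimum of 1.5, 5 were higher for Y640F in HPC7, 5 and 2 for Y640F against STAT3 there, 1 higher for STAT3 in HPCLSK, 18 higher for Y640F, 16 and 2 for Y640F against STAT3, and 11 and 9 between the lines. The line differences then had 2 lower with STAT3 and 17 and 3 with Y640F. With at least 5 CPM in 3 libraries, 2 were lower for STAT3 and 0 for Y640F in HPC7, since fewer genes were tested, and 2 in the line difference of Y640F. With no filter on low counts, 2 were lower for Y640F against STAT3 in HPC7 and 1 in the line difference of STAT3. With DESeq2, 1 was lower in the line difference of STAT3 and 2 in that of Y640F. Without both HPCLSK empty vector replicate 1 and Y640F replicate 1, 4 were higher for Y640F in HPCLSK, and 1 and 2 lower in the line differences of STAT3 and Y640F. With plain library totals, the summed level in HPC7 Y640F was 8005 CPM in place of 7761. A lower fold minimum can only add calls. The cause of the other shifts was not tested.

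Same-numbered libraries did not deviate together (correlations −0.098 to 0.059 in HPC7 and −0.191 to 0.097 in HPCLSK). With the replicate block, 2 members were lower for Y640F against STAT3 in HPC7 and 2 in the line difference of Y640F, and other counts stayed within 1.5 times. Leaving out 1 library at a time gave 1 to 2 lower for Y640F against STAT3 in HPC7, 4 to 9 higher for Y640F and 3 to 6 for Y640F against STAT3 in HPCLSK, 0 to 1 lower in the line difference of STAT3, and 1 to 3 lower in that of Y640F. Genes with few counts in HPC7 (Hk3, Aldoc and Vegfa) are limited by depth.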
